A study of Mus musculus with 40 samples.

Results

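The genes described here are 10 members of the Hippo pathway and its TEAD partners and targets: Vgll4, Yap1, Wwtr1, Tead1, Lats1, Lats2, Amotl2, Ankrd1, Ajuba and Wwc1. They are 10 of 28467 genes in the bulk table and 10 of 32285 in the table of nuclei, and all 10 were found in both. The list was chosen by the Vgll4 counts of nuclei from the S1 segment of the proximal tubule, the class the authors call PTS1, which were lower after nephrectomy, so every value in that class is given as a description with no test. The samples are right kidneys of male C57BL/6 mice aged 8 to 12 weeks whose left kidney had been removed (unilateral nephrectomy, UNx) or left in place after the same surgery (sham), with 1 mouse per library. Bulk polyA RNA was sequenced from 6 sham and 6 UNx mice at 24 h (labelled batch 1), 48 h and 72 h (both batch 2) after surgery, 36 libraries in all. Single nuclei were sequenced 24 h after surgery from 2 sham and 2 UNx mice, 1 of each in batch 3 and 1 of each in batch 4. All mice, shams included, had anaesthesia, surgery and buprenorphine.

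The Hippo pathway is a kinase cascade known for its part in organ size and tissue growth. The kinases Stk3 and Stk4 activate Lats1 and Lats2, which phosphorylate the coactivators YAP (Yap1) and TAZ (Wwtr1) and so keep them out of the nucleus. Unphosphorylated YAP and TAZ bind TEAD transcription factors and switch on genes such as Ankrd1, Ccn1, Ccn2 and Amotl2. Vgll4, a vestigial-like protein, binds TEAD in place of YAP and acts as a repressor. Wwc1 (KIBRA) is a scaffold that promotes Lats activity, Ajuba is a LIM protein that restrains it, and Amotl2 is an angiomotin that holds YAP at cell junctions. In the kidney, YAP and TAZ are known for their part in nephron formation and in the response of tubules to injury.

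TEAD factors bind the core GGAATG, which reads CATTCC on the other strand. In the RefSeq promoter windows of GRCm38.p6, 250 bases long and ending just before a start site, 4153 of 32851 windows (12.6%) held the core on either strand. Of the 10 members 9 had at least 1 window there, Tead1 being the other, and 7 of their 11 windows held it. The Wwtr1 windows overlap and hold the same core, which is counted in each of them. The windows of Vgll4, of Yap1 and of the longer-reaching Wwtr1 start are shown because these genes are the repressor and the coactivators that compete for TEAD, with the core in capitals, 5′ to 3′ along the gene's strand. All are on the minus strand. The Vgll4 window, chr6:114969204-114969453, lies inside the annotated gene (chr6:114860628-114969994), and its core starts 82 bases before the start site. The Yap1 window is chr9:8004597-8004846, directly outside the gene (chr9:7931999-8004596), with the core 141 bases before the start. The Wwtr1 window is chr3:57575911-57576160, directly outside the gene (chr3:57455649-57575910), with the core 136 bases before the start.
Vgll4: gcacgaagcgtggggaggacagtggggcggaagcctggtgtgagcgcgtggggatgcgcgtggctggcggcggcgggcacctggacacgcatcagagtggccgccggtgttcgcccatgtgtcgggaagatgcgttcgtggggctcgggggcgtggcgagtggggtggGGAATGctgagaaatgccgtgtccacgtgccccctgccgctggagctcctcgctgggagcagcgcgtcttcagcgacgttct
Yap1: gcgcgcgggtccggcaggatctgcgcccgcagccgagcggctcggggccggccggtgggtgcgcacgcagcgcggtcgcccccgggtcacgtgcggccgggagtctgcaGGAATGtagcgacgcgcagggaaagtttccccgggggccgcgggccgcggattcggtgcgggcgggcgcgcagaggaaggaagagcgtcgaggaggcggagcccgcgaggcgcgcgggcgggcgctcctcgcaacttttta
Wwtr1: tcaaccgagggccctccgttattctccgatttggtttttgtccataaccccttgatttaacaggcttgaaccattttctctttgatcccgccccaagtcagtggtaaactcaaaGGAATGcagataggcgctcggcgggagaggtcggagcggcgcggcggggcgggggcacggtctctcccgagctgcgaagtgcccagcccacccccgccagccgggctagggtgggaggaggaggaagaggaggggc
Windows of Amotl2, Ajuba and Ankrd1 also held the core, 65 bases before the start in Amotl2, 186 and 164 in Ajuba, and 210 and 123 in Ankrd1. No core was found in the windows of Lats1, Lats2 and Wwc1. These matches are letters in a window, and binding was not measured.

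The bulk libraries held 14.9 to 24.1 M (1000000) estimated counts each. They differed in a way that the surgery groups only partly follow. A score built from 271 pseudogenes placed each library between the mean of the 48 h and 72 h shams (0) and the mean of the 24 h shams (1), both means taken without the library itself. It was 0.98 ± 0.042 (SD, n = 6) in shams of 24 h and 0.719 ± 0.082 in UNx mice of that time. At 48 h it was 0.020 ± 0.044 in shams, 0.64 to 0.717 in UNx replicates 1 to 5 and 0.00628 in UNx replicate 6. At 72 h both groups were near 0. The share of mitochondrially encoded counts followed the same split, at 21.5% to 26.7% at 24 h, 25.8% to 26.4% in those 5 UNx libraries and 13.6% to 16.1% in all others. The part of this split in the bulk results below was not tested apart from fits with the score as a covariate, given where they turned a direction, ended a call or moved a change of a member widely. At 48 h UNx replicate 6 alone of the UNx libraries had a score near that of the shams. The covariate fit at 48 h thus in effect sets that library against the shams. It is not a separate check from the fits below with replicate 6 as the one UNx library. At 24 h the scores of the groups did not overlap, at 0.928 to 1.03 in shams and 0.674 to 0.884 in UNx mice. The 24 h covariate fit can thus hardly tell the score from the surgery. The 4 nucleus samples held 16500 nuclei with a median of 7581 to 9909 UMI per mouse, and 18 barcodes occurred in more than 1 library. Of the proximal tubule markers, the S1 markers Slc5a2, Slc5a12 and Slc7a7 were all highest in PTS1 and the S3 markers Slc7a13, Slc22a19 and Cyp7b1 all highest in PTS3. Of the S2 markers Slc22a6 and Cyp2e1 were highest in PTS2 and Slc22a7 in PTS3 (113 CPM), and in PTS2 the summed S3 markers exceeded the S2 markers in 3 of 4 mice (1111 against 703.6 CPM in the batch 3 UNx mouse).

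Vgll4 transcripts in proximal tubule nuclei were at a lower level after nephrectomy in both batches. In PTS1 the batch 3 and batch 4 sham mice had 234 and 244 CPM, and the UNx mice 110 and 122 CPM. CPM are counts per 1000000 of the class's summed UMI in a mouse, over genes past the filter on low counts and with TMM scaling of the total. The UNx level was 0.471 of the sham level in batch 3 and 0.501 in batch 4, a log2 fold change of −1.04. This is the difference that chose the list, and it rests on 2362, 1946, 1069 and 569 Vgll4 counts. In PTS2, the next segment, the shams had 125 and 143 CPM and the UNx mice 40.1 and 81.4 CPM, ratios of 0.322 in batch 3 and 0.569 in batch 4. In PTS3 the shams had 176 and 197 CPM and the UNx mice 32.7 and 106 CPM, ratios of 0.185 and 0.536. In all 3 segments both UNx mice lay below both shams, and in PTS2 and PTS3 the batch 3 UNx mouse was the lower of the pair.

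The fit without a batch term called no gene in any of the 23 classes with at least 10 nuclei in every mouse (percent called 0), and with 2 mice against 2 an exact permutation test of 1 gene cannot go below p = 0.333. It gave log2 fold changes for Vgll4 of −1.14 (SE 0.399) in PTS2 and −1.43 (SE 0.61) in PTS3, neither called by edgeR's quasi-likelihood test or by DESeq2. At an unadjusted p under 0.05, 336 of 14293 genes passed in PTS2 and 250 of 14816 in PTS3, and among the members 1 and 2 of the 9 tested. The labels put each sham mouse in a batch with a UNx mouse, and with that batch as a block edgeR gave Vgll4 a log2 fold change of −1.23 (95% interval −1.65 to −0.81, adjusted p = 0.00624) in PTS2 and −1.64 (−2.28 to −1.01, adjusted p = 0.0137) in PTS3. The blocked fit called 2.99% of genes in PTS2 and 2.47% in PTS3, and 1.63% in PTS1, the class that chose the list and from which no call is read. PTS2 and PTS3 nuclei came from the same 4 mice as those of PTS1 and are not independent of them. With so few mice, the blocked intervals and p-values, here and for Wwc1 below, rest mostly on spread borrowed from other genes. The permutation limit above holds for mice not paired by batch. Without the batch 3 UNx mouse the unblocked changes were −0.72 in PTS2 and −0.82 in PTS3, and without the batch 4 UNx mouse −1.70 and −2.50.

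Several measures differed beside Vgll4 in these classes. Marker sums in CPM, here and above, are per 1000000 of the class's summed UMI without TMM scaling. Summed thick ascending limb markers (Slc12a1, Umod, Cldn16) in PTS1 were 84.9 and 1666 CPM in the batch 3 and batch 4 shams and 108 and 2204 CPM in the UNx mice, and in PTS3 they were 71.7 and 1745 against 80.5 and 2524 CPM. None of these markers was at 0 in any of the PTS1 sums. They were far higher in both batch 4 mice than in both batch 3 mice. The 3 summed PTS1 markers in PTS1 were 8802 and 4063 CPM in shams and 5515 and 3014 CPM in UNx mice, lower in the UNx mouse of each batch. Their part in the Vgll4 values was not tested. In the authors' finer annotation nearly all UNx nuclei of these segments sat in clusters of their own: 756 and 369 in a UNx PTS1 cluster against 14 and 61 in the PTS1 cluster, whereas the shams had 14 and 16 against 945 and 522.

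**Figure D1:**
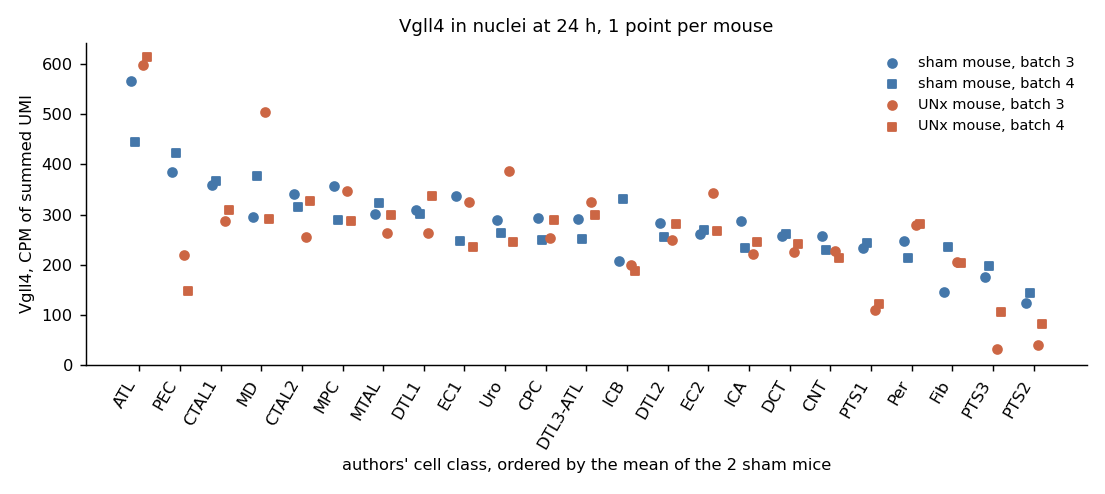
Vgll4 level (CPM of summed UMI, vertical axis) in each of 23 authors' cell classes (horizontal axis, ordered by the mean of the 2 sham mice), with 1 point per mouse, colour for surgery and shape for batch. In PTS1, PTS2, PTS3 and PEC both UNx mice lie below both sham mice, at 110 and 122 against 234 and 244 CPM in PTS1. The same holds in MTAL, by a small margin. PTS1 chose the list, and with 2 mice against 2 an exact permutation test cannot go below p = 0.333, so these positions are a description.

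Across the 23 classes of sham nuclei Vgll4 was highest in ATL, the thin ascending limb class, with 566 and 445 CPM. PEC followed with 385 and 424 CPM and CTAL1, a cortical thick limb class, with 359 and 366 CPM. Both ATL mice were above both PEC mice, and both PEC mice above both CTAL1 mice. From CTAL1 down to PTS3 each class overlapped the next in the order, through DTL1 (308 and 302 CPM), EC1 (337 and 247), DCT (257 and 261) and PTS1, ranked 19 of 23. PTS3 (176 and 197 CPM) and PTS2 (125 and 143 CPM) were the lowest, and these did not overlap. Thus Vgll4 in sham nuclei was lowest in PTS2 and PTS3, where the UNx mice lay lower still. PTS1 (234 and 244 CPM) was at the level of CNT (257 and 230 CPM). PEC, where both UNx mice also lay below both shams, ranked 2.

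Outside the proximal tubule the lowest Vgll4 ratio was in PEC, a small class of 15 to 31 nuclei per mouse, in which Wt1 was highest among the 23 classes fitted, a set without the authors' Podo class. Its shams had 385 and 424 CPM and its UNx mice 219 and 147 CPM, a log2 fold change of −1.13 (95% interval −1.98 to −0.27) that was not called (edgeR adjusted p = 0.999, and 0.747 with the batch block). The counts behind it were 76, 48, 43 and 20. In the other 19 classes the Vgll4 change lay between −0.49 in ICB and 0.28 in Per, with no call in either fit. No member was called in any of these 20 classes, PEC included, where the blocked fits called few genes of any kind. They called 0.439% of genes in CNT, 0.203% in CPC, 0.603% in CTAL1, 0.0431% in CTAL2, 0.481% in DCT, 0.407% in MPC and 0.0300% in MTAL. The shares were 0.893% in EC1, 0.295% in EC2, 0.797% in ICA, 0.583% in ICB, 0.442% in DTL1, 0.433% in DTL3-ATL, 0.0433% in Per and 0.0106% in Uro, and no gene in ATL, DTL2, Fib, MD or PEC. MTAL, with the most Vgll4 counts outside the proximal tubule in the UNx mice, had 302 and 324 CPM in shams and 263 and 299 CPM in UNx mice. Over all nuclei of a mouse Vgll4 was 217 and 253 CPM in shams and 149 and 205 CPM in UNx mice, a log2 fold change of −0.41 (SE 0.216) that was not called in either fit. The batch-blocked value was −0.42 (adjusted p = 0.126), in a fit that called 1.04% of genes.

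PTS1, PTS2 and PTS3 nuclei carried 43.2% and 39.0% of all Vgll4 counts in the batch 3 and batch 4 sham mice, and 22.7% and 24.5% in the UNx mice. Their share of all UMI was alike within a batch, at 55.6% and 45.8% in shams and 57.1% and 45.3% in UNx mice. Wwc1 showed a smaller difference of the same kind, with 44.2% and 43.7% of its counts in these classes in shams and 31.3% and 32.4% in UNx mice. For Wwtr1 the shares were 52.2% and 47.9% in shams and 61.4% and 50.8% in UNx mice, higher in the UNx mouse of each batch.

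Yap1 and Wwtr1, the coactivators, were near or above the sham level in UNx proximal tubule nuclei while Vgll4 was below it. In PTS1 Yap1 had 87.0 and 75.9 CPM in shams and 101 and 86.8 CPM in UNx mice, and Wwtr1 264 and 217 against 304 and 259 CPM. In PTS3 Yap1 had 107 and 82.4 against 114 and 113 CPM, and Wwtr1 194 and 157 against 235 and 187 CPM. Their log2 fold changes in PTS2 and PTS3 lay between 0.06 and 0.31, and none was called in either fit. Tead1, the TEAD factor on the list, had 661 and 650 CPM in PTS3 shams and 444 CPM in each UNx mouse, a change of −0.56 (95% interval −1.09 to −0.04). It was not called, at an adjusted p of 0.0892 with the batch block. In PTS2 Tead1 had 490 and 557 CPM in shams against 423 and 435 CPM, and in PTS1 the groups overlapped, at 269 and 347 against 225 and 326 CPM.

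Wwc1, the upstream scaffold, was the member besides Vgll4 that the batch-blocked fit called. In PTS3 it had 678 and 840 CPM in shams and 340 and 368 CPM in UNx mice, with ratios of 0.501 and 0.438 within batch 3 and batch 4. The blocked log2 fold change was −1.09 (95% interval −1.43 to −0.76, edgeR adjusted p = 0.00398), and the unblocked fit gave −1.10 without a call. In PTS2 Wwc1 had 288 and 486 CPM against 220 and 285 CPM, not called (blocked adjusted p = 0.0843), and in PTS1 203 and 384 against 157 and 276 CPM. The UNx mouse was below the sham of its batch in all 3 segments. In sham nuclei of Per, Fib, EC1 and EC2, Wwc1 had 0, 33.9, 23.3 and 19.4 CPM in batch 3. In batch 4 Wwc1 had 551, 366, 355 and 215 CPM in these classes. The part of this difference between batches in the proximal tubule values of Wwc1 was not tested.

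The Lats kinases, Amotl2 and Ajuba gave no call in PTS2 or PTS3. Lats1 had 62.3 and 57.0 CPM in PTS1 shams and 65.7 and 57.3 CPM in UNx mice, with ratios of 1.05 and 1.01. Lats2 had 72.6 and 59.2 against 51.4 and 52.2 CPM there, with both UNx mice below both shams. Amotl2 in PTS1 was 18.1 and 26.0 CPM in shams and 7.61 and 29.2 CPM in UNx mice, with ratios of 0.42 in batch 3 and 1.12 in batch 4, so the batches went opposite ways. Ajuba was low throughout the proximal tubule, at 7.03 and 6.89 against 2.06 and 6.01 CPM in PTS1. Ankrd1, a YAP target, was below the filter in all 3 segments. Summed over them it had 0 and 13 counts in the batch 3 and batch 4 shams, and 4 and 41 in the UNx mice.

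**Figure D2:**
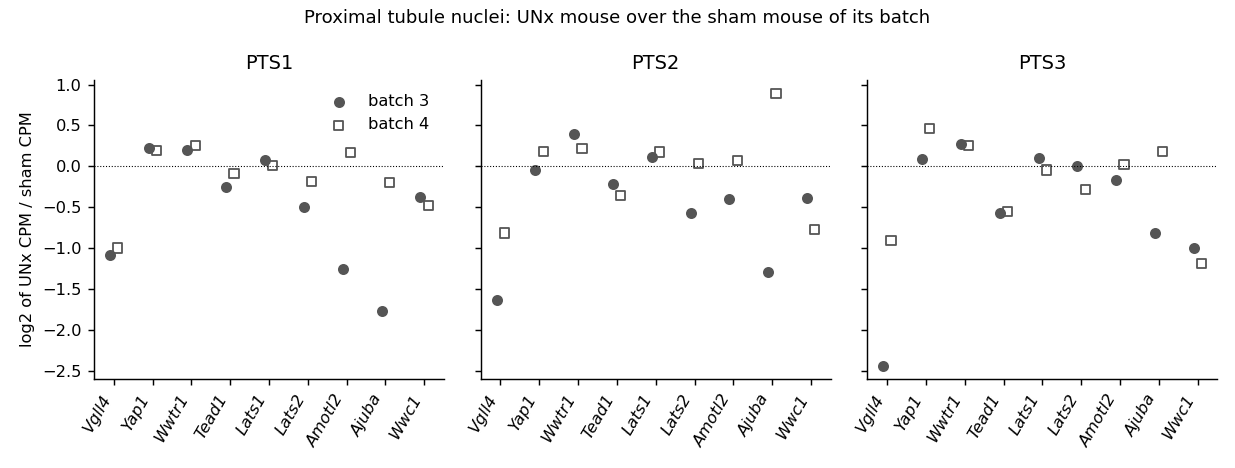
log2 of the UNx over the sham CPM within a batch (vertical axis) for 9 members (horizontal axis) in PTS1, PTS2 and PTS3, filled circles for batch 3 and open squares for batch 4. Vgll4 and Wwc1 lie below 0 in both batches of all 3 segments, while Amotl2 and Ajuba differ in sign between batches in places (Amotl2 in PTS1 has ratios of 0.42 and 1.12).

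The members had different high classes among the 23 of sham nuclei. Yap1 was highest in DCT (335 and 171 CPM) and low in EC1 (81.6 and 79.5 CPM) and PTS1, whereas Wwtr1 was highest in the endothelial classes EC2 (542 and 303 CPM) and EC1 (533 and 273 CPM). The 2 sham mice differed widely at these levels, batch 3 being higher each time. Tead1 was highest in DTL2, a thin limb class, with 1116 and 914 CPM, and PTS3 ranked 3. Lats1 was highest in MD (125 and 180 CPM) and Lats2 in DTL1 (203 and 191 CPM). DTL1, another thin limb class, was also the highest class for Amotl2 (355 and 159 CPM), Wwc1 (1951 and 1408 CPM) and Ankrd1 (84.4 and 68.8 CPM). Ajuba was highest in MPC (36.0 and 22.2 CPM). Ankrd1 was nearly confined to DTL1, ATL (69.4 and 39.9 CPM), DTL2 (57.3 and 40.3 CPM) and PEC, with a sham mean of at most 2.10 CPM in the other 19 classes.

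**Figure D3:**
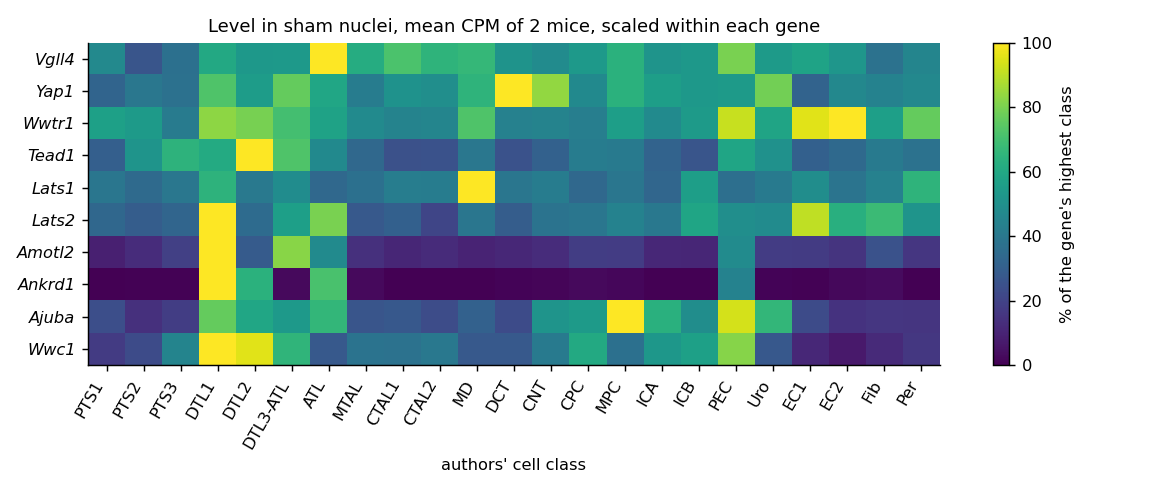
Level of each member (rows) in the 23 classes (columns) of sham nuclei, as a percentage of that gene's highest class, from the mean CPM of 2 mice (colour scale, 0 to 100%). The thin limb class DTL1 is the highest class for Lats2, Amotl2, Ankrd1 and Wwc1, and Vgll4 is highest in ATL and lowest in PTS2.

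Ankrd1 in nuclei of the thin limb class DTL1 was at a higher level in both UNx mice than in both shams, without a call. It had 84.4 and 68.8 CPM in shams and 223 and 186 CPM in UNx mice, from 20, 13, 70 and 33 counts, with ratios of 2.64 and 2.70 within batch 3 and batch 4. The log2 fold change was 1.41 (95% interval 0.41 to 2.40), not called by edgeR without the block or with it (blocked adjusted p = 0.0662, in a fit that called 0.442% of genes). In DTL2 the mice disagreed, with 57.3 and 40.3 CPM in shams and 319 and 7.80 CPM in UNx mice, the last from 1 count. In ATL the groups overlapped, at 69.4 and 39.9 against 54.0 and 73.1 CPM. Over all nuclei Ankrd1 had 1.67 and 2.30 CPM in shams and 4.06 and 5.52 CPM in UNx mice, a log2 change of 1.27 that was also not called (blocked adjusted p = 0.0613).

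The genes whose class pattern in sham nuclei was most like that of Vgll4 were Schip1 (Pearson r = 0.804), Cd59a (0.778), Smad6 (0.756), Rbm20 (0.749) and Lrrc20 (0.747). The measure is the correlation of log2(CPM + 1) over 23 classes, among 8204 genes with a mean of at least 20 CPM, and the classes share their libraries. Schip1, Cd59a, Rbm20 and Lrrc20 were all highest in ATL, as Vgll4 was. Cd59a, Smad6, Rbm20 and Lrrc20 were lowest in PTS2, with 8.90, 3.44, 3.78 and 1.49 CPM, and Schip1 in PTS3 with 74.5 CPM.

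In bulk kidney Vgll4 was not called at any time. At 24 h the shams ranged from 11.1 to 27.7 CPM with a median of 16.1, and the UNx libraries from 13.2 to 23.1 CPM with a median of 21.7. The log2 fold change was 0.21 (SE 0.203, 95% interval −0.22 to 0.64, edgeR adjusted p = 0.48). At 48 h the shams ranged from 17.4 to 26.4 CPM (median 20.6) and the UNx libraries from 12.5 to 24.3 CPM (median 17.7), a change of −0.27 (SE 0.15, 95% interval −0.59 to 0.05, adjusted p = 0.174). At 72 h they ranged from 21.5 to 34.1 CPM (median 26.9) and from 20.0 to 29.7 CPM (median 25.6), a change of −0.13 (SE 0.122, 95% interval −0.39 to 0.13, adjusted p = 0.629). The groups overlapped at all 3 times, and the lowest 48 h UNx value was replicate 6. In bulk tissue fewer cells of a type and less RNA per cell cannot be told apart. With the pseudogene score as a covariate the changes were −0.10, −0.77 and −0.21 at the 3 times, none called. The 24 h bulk value (0.21, SE 0.203) and that of all nuclei (−0.41, SE 0.216) came from different mice, batches and library types.

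Of the 10 members, all of which passed the filter on low counts, 2 were called at 24 h (background 27.3% of 14104 genes), 4 at 48 h (32.9% of 14280) and 0 at 72 h (1.71% of 14556). By share the members were at or below the background at 24 h and slightly above it at 48 h. At 24 h 1 was higher and 1 lower (background 14.2% and 13.1%), and at 48 h 1 was higher and 3 lower (16.9% and 16.0%). The median log2 fold change of the members was −0.05, −0.23 and −0.08 at the 3 times, against 0.005, −0.04 and −0.004 over all genes tested. At 72 h, 1 member (Wwc1) and 2515 genes had an unadjusted edgeR p under 0.05, and DESeq2 called no member either. With the score as covariate no member was called at 24 h or 48 h, in fits that called 72 genes and 0 genes (1271 and 2135 before adjustment). As the 48 h covariate fit called no gene at all, a call lost there tells nothing particular about a member. With replicate 6 as the one UNx library at 48 h, assumed to vary like the shams, all 10 members had a change below 0. These changes share that 1 library, and the median over all genes in that fit was −0.034. The share of all genes below 0 was not computed.

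Yap1 changed in opposite directions at 24 h and 48 h. At 24 h its shams ranged from 43.9 to 48.2 CPM (median 45.9) and its UNx libraries from 45.7 to 55.2 CPM (median 52.2). The groups overlapped, and Yap1 was higher by 0.16 in log2 units (SE 0.052, edgeR adjusted p = 0.0295), with 5 of 6 UNx libraries above the sham mean. This call was lost without sham replicate 3 or 5 or without UNx replicate 1, 3, 4 or 5 (adjusted p between 0.0563 and 0.0706). The call was also lost without a filter on low counts, with the replicate block and in 1 fit of all 36 libraries (edgeR adjusted p = 0.065, 0.0661 and 0.0707). With the score as covariate the change was −0.063. At 48 h the shams ranged from 59.5 to 72.6 CPM (median 63.5) and the UNx libraries from 43.0 to 56.3 CPM (median 49.7). The groups did not overlap (11.0% of genes at 48 h), and its log2 level fell by 0.38 (SE 0.075, adjusted p = 0.00234). UNx replicate 6, the library without the high pseudogene score, was the highest UNx value at 56.3 CPM, still below all shams. Yap1 at 48 h was at −0.26 with the score as covariate (adjusted p = 0.353), and with replicate 6 as the one UNx library −0.20 (adjusted p = 0.462). At 72 h the ranges were 69.5 to 83.3 CPM and 65.2 to 82.8 CPM, with a change of −0.04.

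Wwtr1, which encodes TAZ, went the other way. At 24 h its shams ranged from 79.2 to 98.2 CPM (median 84.4) and its UNx libraries from 75.9 to 84.6 CPM (median 76.5), a log2 change of −0.14 that was not called (edgeR adjusted p = 0.0797). Leaving out UNx replicate 6, the highest, brought it past the threshold (edgeR adjusted p = 0.044). So did 1 fit of all 36 libraries, with a change of −0.15 (edgeR adjusted p = 0.0317). With the score as covariate the change was 0.12. At 48 h the shams ranged from 67.0 to 76.6 CPM (median 70.7) and the UNx libraries from 69.5 to 85.4 CPM (median 82.9), and Wwtr1 was higher by 0.19 (SE 0.060, adjusted p = 0.0268). UNx replicates 1 to 5 lay between 82.8 and 85.4 CPM, above all shams, and replicate 6 at 69.5 CPM among the shams. Its change was −0.017 with the score as covariate and −0.029 with replicate 6 as the one UNx library. The call was also lost without a filter on low counts (adjusted p = 0.0626), and without sham replicate 2 or 6 or without UNx replicate 1, 2, 4 or 5 (adjusted p between 0.0506 and 0.0591). At 72 h the change was −0.03.

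The effect of nephrectomy on Yap1 and on Wwtr1 differed between times in 1 fit of all 36 libraries, each time with its own shams. For Yap1 the 48 h effect minus the 24 h effect was −0.51 (SE 0.088, edgeR adjusted p = 2.6e-05), and the 72 h minus the 48 h effect 0.33 (SE 0.087, adjusted p = 0.00902). For Wwtr1 these differences were 0.36 (SE 0.074, adjusted p = 0.000264) and −0.23 (SE 0.074, adjusted p = 0.033). They are 2 of 10 members in each comparison, where 37.0% and 14.6% of 15093 genes were called, and no member differed between 24 h and 72 h (4.15% called). At an unadjusted p under 0.05 Yap1 passed for 24 h against 72 h, with −0.18. None of the differences was called with the score as covariate, and the 24 h libraries form a labelled batch of their own, so time and batch cannot be told apart there.

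**Figure D4:**
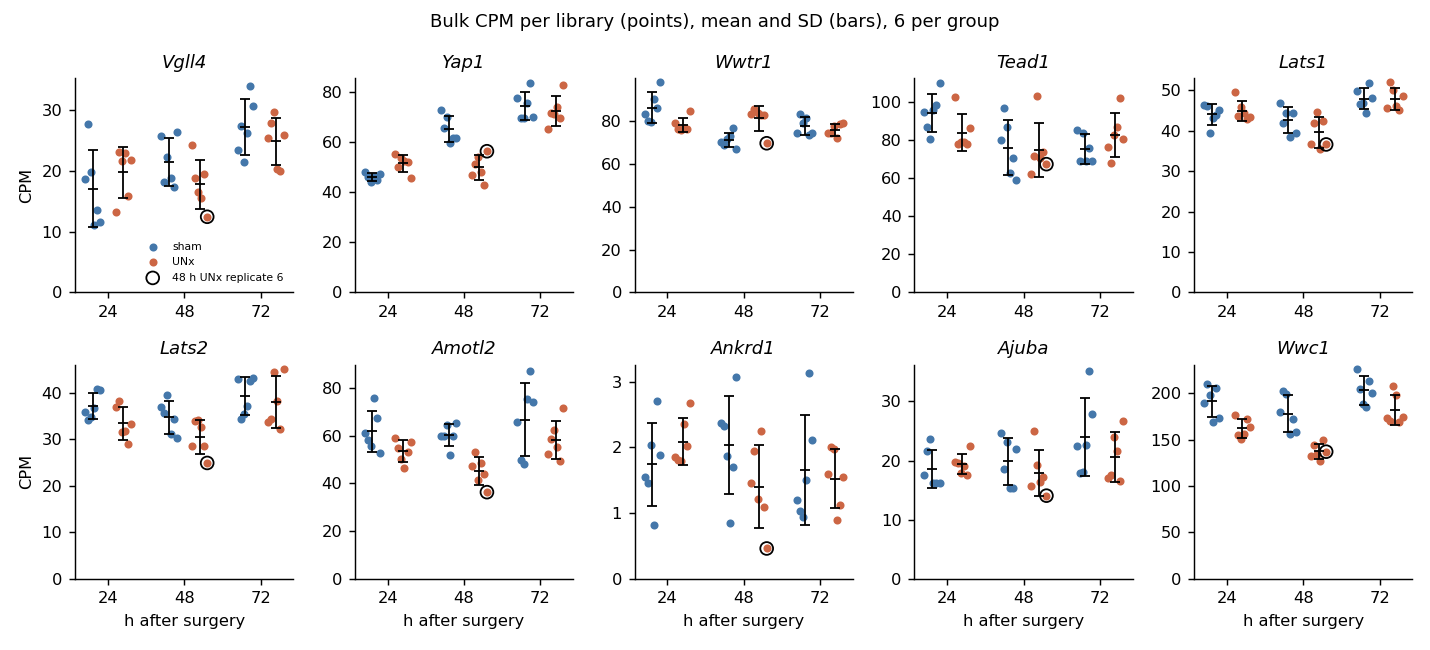
CPM of each member in the 36 bulk libraries (points; bars are mean and SD of 6) by h after surgery, shams in blue and UNx in orange, with UNx replicate 6 of 48 h ringed. At 48 h Yap1 and Wwc1 do not overlap between groups, and the ringed library lies among the shams for Wwtr1 (69.5 CPM) but below them for Amotl2 (36.3 CPM).

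Wwc1, at the top of the list's order of action, fell at 24 h and 48 h. At 24 h its shams ranged from 169 to 211 CPM (median 194) and its UNx libraries from 151 to 176 CPM (median 160), a fall by 0.24 in log2 units (SE 0.064, edgeR adjusted p = 0.0136). At 48 h the ranges were 156 to 203 CPM (median 176) and 127 to 150 CPM (median 136), without overlap, and Wwc1 fell by 0.37 (SE 0.076, adjusted p = 0.00289). UNx replicate 6 had 137 CPM, within the other 5. At 72 h the ranges were 185 to 226 CPM and 169 to 208 CPM, with a change of −0.16 that was not called (adjusted p = 0.239). Its changes at 24 h and 48 h were −0.34 and −0.41 with the score as covariate, neither called, so the direction stayed and the call did not. All 6 UNx libraries were below the sham mean at 24 h and at 48 h, and 5 of 6 at 72 h.

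Amotl2, both a YAP-binding angiomotin and a YAP target, fell at 48 h. Its shams ranged from 52.0 to 65.2 CPM (median 59.8) and its UNx libraries from 36.3 to 53.0 CPM (median 45.5), a fall by 0.42 (SE 0.087, edgeR adjusted p = 0.00311). The groups overlapped slightly, and the lowest library was UNx replicate 6. Amotl2 at 48 h was at −0.72 with the score as covariate and −0.73 with replicate 6 as the one UNx library, fits that rest largely on the same library. The covariate fit called no gene at 48 h, Amotl2 included. At 24 h the ranges were 52.5 to 75.6 CPM and 46.6 to 59.1 CPM, a change of −0.21 that was not called (adjusted p = 0.0804) but passed without sham replicate 6 (adjusted p = 0.0441). At 72 h the change was −0.20 and the shams spread from 48.2 to 87.1 CPM.

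Tead1, Lats1, Lats2, Ajuba and Ankrd1 were not called at any time in bulk. Tead1 had a median of 95.2 CPM in 24 h shams and 79.0 CPM in UNx libraries, a log2 change of −0.17 (95% interval −0.34 to 0.01), and without UNx replicate 1 it was −0.24 and past the threshold (edgeR adjusted p = 0.0286). Its 48 h and 72 h changes were −0.02 and 0.14. Lats1 lay within −0.10 and 0.03 at all times, the narrowest interval being −0.11 to 0.11 at 72 h. Lats2 had sham medians of 36.3, 35.1 and 39.9 CPM and UNx medians of 32.6, 30.7 and 36.3 CPM, lower at each time without a call. Ajuba changes were 0.06, −0.15 and −0.23. Ankrd1 was near the detection limit, with 0.462 to 3.13 CPM over all 36 libraries, and its changes of 0.27, −0.55 and −0.12 had intervals as wide as −1.28 to 0.17 at 48 h. With the score as covariate the 48 h changes of Tead1, Lats2 and Ajuba were −0.22, −0.51 and −0.57 and that of Ankrd1 in bulk at 48 h was −2.05, none called. Counts of Lats2 are uncertain because Gm49361 overlaps it on the same strand.

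**Figure D5:**
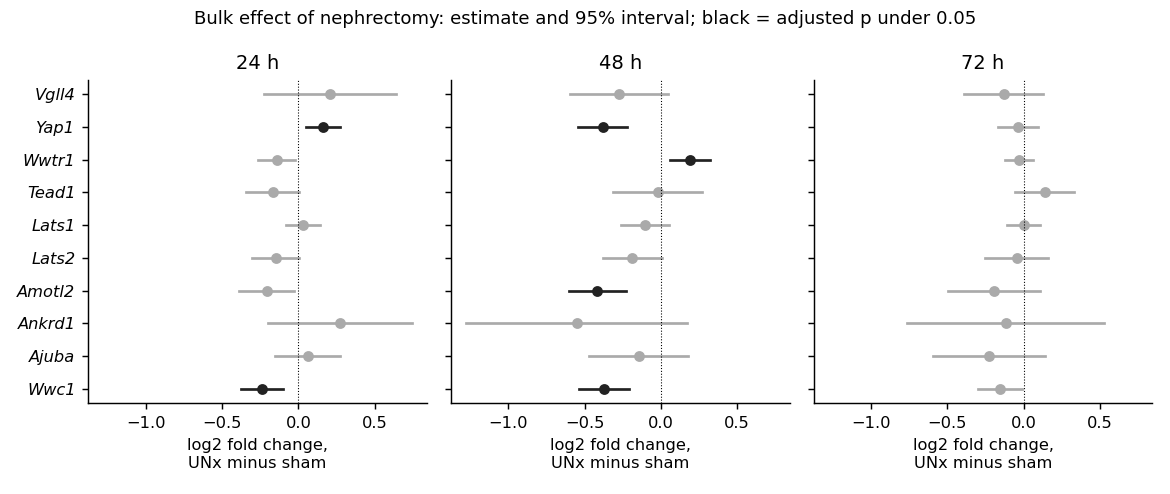
log2 fold change of UNx minus sham (horizontal axis) with its 95% interval for each member (vertical axis) at 24, 48 and 72 h in bulk, black where the adjusted p was under 0.05. Yap1 and Wwc1 are black at 24 h, Yap1, Wwtr1, Amotl2 and Wwc1 at 48 h and none at 72 h, and Vgll4 crosses 0 at each time.

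Among 28 other core kinases, scaffolds and upstream regulators, 3 were higher and 2 lower at 24 h (14.2% and 13.1% of all genes), 2 higher and 13 lower at 48 h (16.9% and 16.0%) and none was called at 72 h (1.71%). Without UNx replicate 6, 8 were called at 24 h (29.2% of all genes in that fit). Their median change at 48 h was −0.22. At 24 h Taok3 and Map4k4, kinases that act on the Lats or Mst kinases, fell by 0.46 and 0.41 on the log2 scale. Ppp2r1a, a scaffold subunit of the phosphatase PP2A, rose by 0.23 (87.0 ± 6.3 to 102 ± 4.4 CPM, SD, n = 6 each), and Csnk1d, a casein kinase, by 0.19. At 48 h Mob1a, the Lats cofactor, fell by 0.48 (61.4 ± 3.8 to 44.1 ± 5.6 CPM) and Taok1 by 0.36. Stk3, the kinase upstream of Lats, rose by 0.54 (15.0 ± 1.1 to 21.9 ± 3.3 CPM), and the polarity gene Crb3 by 0.39. Mob1a, Taok1 and Stk3 groups did not overlap at 48 h (11.0% of genes). None of the 28 was called at 24 h or 48 h with the score as covariate, and Crb3 at 48 h was then −0.048. DESeq2 called 3 of them at 72 h, where it called 4.62% of all genes.

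Of the 6 other TEAD and vestigial-like genes, 4 passed the filter and Tead3 alone was called, higher at 48 h (16.9% of all genes). Of 22 YAP and TAZ target genes, 3 of which are also members, 21 passed the filter. At 24 h 1 was higher and 3 were lower (14.2% and 13.1% of all genes), and at 48 h 1 was higher and 6 were lower (16.9% and 16.0%). At 72 h none was called by edgeR (1.71%) and 3 by DESeq2, which called 4.62% of all genes. By share the calls in either direction were below those of all genes at 24 h (27.3%) and near them at 48 h (32.9%). In 1 fit of all 36 libraries 1 target was called at 24 h (25.0% of all genes in that fit). Without UNx replicate 6 edgeR called 4 targets at 72 h (4.63% of all genes). Their median changes were −0.08, −0.19 and −0.15. Crim1, a transmembrane regulator of growth factors, fell at 24 h (82.5 ± 6.7 to 63.8 ± 2.2 CPM, by 0.37) and at 48 h (71.9 ± 7.7 to 55.3 ± 3.2 CPM, by 0.38), without overlap at either time (10.4% and 11.0% of genes). Nt5e, an ectonucleotidase, rose by 0.54 at 24 h and Fjx1 by 0.56 at 48 h. Ccn1 and Ccn2, matricellular proteins and common YAP readouts, were chosen for naming after their values were seen. Ccn2 fell by 0.57 at 24 h (43.2 ± 11 to 29.0 ± 4.8 CPM, edgeR adjusted p = 0.0114) and by 0.86 at 48 h (45.9 ± 17 to 25.3 ± 9.6 CPM, adjusted p = 0.0159), and Ccn1 fell by 0.75 at 48 h (adjusted p = 0.0365). The 24 h calls of Ccn2 and Nt5e were lost in the fit of all 36 libraries (edgeR adjusted p = 0.0591 and 0.0796). That of Ccn1 at 48 h was lost without sham replicate 4, 5 or 6 or without UNx replicate 3, 4, 5 or 6 (adjusted p between 0.0577 and 0.085), and that of Fjx1 and of Ccn1 with the replicate block (0.0521 and 0.0947). Under the covariate none of the targets was called, Ccn1 at 24 h was 0.60 and Ccn1 at 48 h was −1.46.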

How the data were processed

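Bulk polyA RNA (36 libraries) and single nuclei (4 samples) of right kidneys were analysed. The bulk values deposited are estimated counts (34.1% of them not whole), and per the submitters' processing notes FastQC 0.11.8, Salmon 1.5.0 and R 4.10 were used with GRCm39. The nucleus values deposited are estimated UMI counts (13.9% of values above 0 not whole), and per the same notes alevin and Seurat were used with mm10. The treatment of doublets and low-quality nuclei is not given in the sources used here. No nucleus was removed (lowest total 1755 UMI). Of the bulk rows 127 had no symbol.

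Counts were rounded. Each bulk time was fitted with edgeR 4.0.16 in R 4.3.3 (filterByExpr, TMM, quasi-likelihood test, two-sided, Benjamini-Hochberg over all genes tested, threshold 0.05), with DESeq2 1.42.0 as an alternative. CPM are per 1000000 counts after TMM scaling, except for summed markers, which are not scaled. Nuclei were summed per mouse and authors' class (30 classes in the form that holds nephrectomy clusters with their segment), and 23 classes with at least 10 nuclei in every mouse were fitted in the same way. Intervals are 95%. Replicates are separate mice per the labels, and no pair of bulk replicates differed by as little as sampling noise (lowest chi-square per gene 5.33 over 90 pairs). For nuclei the labels give each replicate number a batch, and deviations of same-numbered mice correlated at 0.893 over 7639 genes, so the numbers pair those samples. The scripts were tested on simulated data.

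All 10 members are named. From the other lists, up to 3 called genes of lowest p per direction and bulk time are named, and the 5 genes most like Vgll4. The members and lists were chosen with earlier results of these data known. Gene coordinates are from GENCODE M21 and promoter sequences from RefSeq, both on GRCm38. Overlapping annotated genes make counts of Yap1, Wwtr1, Tead1 and Lats2 uncertain where reads could be shared.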

Additional observations from a re-analysis of the deposited data

Results flagged for a closer look

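In 60 groups of 6 bulk libraries tested for a single library far from the rest (chance gives about 1 in 20), 4 were marked. Tead1 was 103 CPM in UNx replicate 1 at 24 h, where the next library had 86.2 CPM, and 103 CPM in UNx replicate 3 at 48 h, where the next had 73.8 CPM. Wwtr1 was 84.6 CPM in UNx replicate 6 at 24 h against 78.9 CPM in the next library. In UNx replicate 6 at 48 h Wwtr1 was 69.5 CPM and the next lowest library 82.8 CPM. That library is also the one 48 h UNx library with a pseudogene score near 0. UNx replicate 6 of 24 h, a different mouse in a different batch, has the highest score of its group (0.884). The part of that score in the Wwtr1 values was not tested beyond the covariate fits.

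Among 30 tests of whether a member's effect of nephrectomy differed between times, 4 passed in edgeR's quasi-likelihood test. Of all genes, 37.0% passed for 24 h against 48 h, 14.6% for 48 h against 72 h and 4.15% for 24 h against 72 h. For Yap1 the effect at 48 h minus that at 24 h was −0.51 and that at 72 h minus 48 h was 0.33. For Wwtr1 the same differences were 0.36 and −0.23, opposite in sign to those of Yap1.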

How the results depend on the processing

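Limits are 2 mice per group for nuclei and a pseudogene score that moves with surgery at 24 h and 48 h in bulk. No member changed sign with DESeq2 size factors, the DESeq2 test, no filter or one fit of all libraries, except Lats1 at 72 h. With the score as covariate the 24 h changes of Vgll4 (−0.10), Yap1 (−0.063), Wwtr1 (0.12), Lats1 (−0.10) and Ccn1 (0.60) reversed, as did Wwtr1 (−0.017) and Crb3 (−0.048) at 48 h and Yap1 (0.0016), Wwtr1 (0.0078) and Lats1 (0.0020) at 72 h. Without UNx replicates 1 to 5 at 48 h Wwtr1 was −0.029 and Crb3 −0.088. Lats1 at 72 h was 0.00053 with DESeq2 size factors, 0.00084 with DESeq2 and 0.0082 with all 36 libraries in 1 fit. Of the differences between times, the covariate reversed Tead1 from 24 h to 48 h (−0.10), Ajuba from 48 h to 72 h (0.32), and Lats2 (−0.042) and Amotl2 (−0.14) from 24 h to 72 h. The 24 h scores of the groups did not overlap, so score and surgery can hardly be told apart in the 24 h covariate fit. The cause of these turns was not tested.

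Members called at 24 h numbered 1 without a filter and 0 with the covariate, and at 48 h 3 without a filter and 0 with the covariate. Without a filter 13.0% of all genes were called at 24 h and 15.7% at 48 h. Members that differed between 24 h and 48 h numbered 0 with the covariate, and between 48 h and 72 h 1 without a filter and 0 with the covariate. The bulk replicate numbers do not pair the mice (correlations of deviations from −0.29 to 0.13). With the replicate block in bulk, 1 member was called at 24 h (22.6% of all genes) and 1 differed between 48 h and 72 h. In nuclei, where the numbers stand for batches, the replicate block called Vgll4 in PTS2 (−1.23) and PTS3 (−1.64) and Wwc1 in PTS3 (−1.09), against 0 without it. Vgll4 in PTS1 (−1.04), which chose the list and is no test, is not counted among them. The block called 1585 genes over all classes against 0. DESeq2 called 68 over all classes and a fit with no filter 39, with no member among them. The finer annotation could be fitted only in PTS1.

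Leaving out 1 library at a time, members called ranged from 1 to 3 at 24 h, 3 to 4 at 48 h and 0 to 0 at 72 h, and from 0 to 1 in nuclei by class, where Wwc1 in Per passed without sham replicate 2. The Per fit then held 1 sham mouse, whose Wwc1 level was 0 CPM. The upstream list ranged from 4 to 8 called at 24 h, 11 to 18 at 48 h and 0 to 2 at 72 h. The targets ranged from 3 to 5, 6 to 8 and 0 to 4, and the TEAD and vestigial-like list from 0 to 1 at 24 h. In these bulk fits 21.8% to 29.2% of all genes were called at 24 h, 25.8% to 41.6% at 48 h and 0.696% to 4.63% at 72 h. Vgll4 in PTS1, which chose the list and is a description, ranged from −1.09 to −0.97. It ranged from −1.70 to −0.72 in PTS2 and −2.50 to −0.82 in PTS3. In bulk Vgll4 ranged from 0.11 to 0.40 at 24 h, −0.38 to −0.16 at 48 h and −0.19 to −0.06 at 72 h. Signs turned for Ccn1 at 24 h (−0.12 to 0.14), Tead1 at 48 h (−0.13 to 0.059), Lats1 at 72 h (−0.022 to 0.021) and Ankrd1 at 72 h (−0.23 to 0.16).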
